A study of Mus musculus with 3 samples.

Results

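The genes described here store calcium in the sarcoplasmic reticulum, pump it back there after a contraction, or buffer it in the cytosol of muscle fibres. They are the 8 genes Casq1, Casq2, Atp2a1, Atp2a2, Srl, Pvalb, Sln and Hrc, taken by symbol from the 46316 gene symbols of the deposited tables. Each gene was represented by its transcript row with the most reads over the 3 libraries. RNA was sequenced on day 4 of differentiation from C2C12, a line of immortalised mouse myoblasts whose cells fuse to multinucleate myotubes. The groups, with 1 library each, were knockout cells for Drp1 given FLAG-Drp1 by transient expression (rescue), the knockout cells alone (KO), and wild-type cells (WT). The series title asks how mitochondrial dynamics bear on muscle fibre type. Drp1, the product of Dnm1l, is the GTPase that divides mitochondria. The labels do not say how the knockout was made or whether the line is 1 clone.

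In muscle, calcium leaves the sarcoplasmic reticulum through the ryanodine receptor to start contraction, and ATP-driven pumps of the SERCA family return it. Inside the reticulum it is held by calsequestrin and other acidic proteins, and in the cytosol of fast mouse fibres by parvalbumin. Atp2a1 encodes SERCA1, the pump of fast fibres, and Atp2a2 encodes SERCA2, the pump of slow fibres and heart. Sln encodes sarcolipin, a small membrane peptide that inhibits the pump. Casq1 encodes the calsequestrin that prevails in adult skeletal muscle and Casq2 the form of heart, slow fibres and developing muscle. Srl encodes sarcalumenin, a luminal protein that binds calcium and stabilises the pump, and Hrc encodes the histidine-rich calcium-binding protein of the lumen.

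Gene counts summed to 13925292 in rescue, 13790401 in KO and 13894134 in WT, so depth was close to equal. Since every group is a single library, no value below has a check by replicates, and no p-value is given. The 95% intervals given here are exact counting intervals, which cover counting error only: without molecular identifiers, several reads can come from 1 molecule. Dnm1l had 1481 reads in rescue, 1284 in KO and 1823 in WT, so its RNA was still present in the library labelled KO. Its level in the library labelled rescue was 1.16-fold above KO and 1.20-fold below WT, so Dnm1l RNA separates the 3 libraries little and is a weak check of either label. The names rescue and KO are used below as the labels give them. All 8 myotube markers were detected well above the low-count filter in every library. In a culture, fewer myotubes and less RNA per myotube cannot be told apart.

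Promoter windows of 3 of the genes are shown because these genes differed in unlike ways. In KO against WT, Casq1 and Atp2a1 were lower while Casq2 was higher, and Casq1 was far higher in rescue. Each window runs from 250 bases before to 50 bases after the annotated start, 5′ to 3′ on the strand of the gene, as given by RefSeq on GRCm38.p6, which is not the GRCm39 build of the deposited tables. RefSeq windows were matched by symbol for 5 of the 8 genes. Capitals mark E-boxes (CANNTG, the core bound by MyoD and myogenin) and sites of the MEF2 motif, searched on both strands. The windows lie at chr1:172219846-172220145 (minus strand) for Casq1, chr3:102086165-102086464 (plus strand) for Casq2 and chr7:126463024-126463323 (minus strand) for Atp2a1.
Casq1: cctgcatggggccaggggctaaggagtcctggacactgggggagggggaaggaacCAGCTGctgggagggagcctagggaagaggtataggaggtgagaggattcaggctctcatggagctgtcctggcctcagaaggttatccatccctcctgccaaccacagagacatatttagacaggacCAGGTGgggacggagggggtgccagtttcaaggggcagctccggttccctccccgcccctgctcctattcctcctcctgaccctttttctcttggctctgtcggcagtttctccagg
Casq2: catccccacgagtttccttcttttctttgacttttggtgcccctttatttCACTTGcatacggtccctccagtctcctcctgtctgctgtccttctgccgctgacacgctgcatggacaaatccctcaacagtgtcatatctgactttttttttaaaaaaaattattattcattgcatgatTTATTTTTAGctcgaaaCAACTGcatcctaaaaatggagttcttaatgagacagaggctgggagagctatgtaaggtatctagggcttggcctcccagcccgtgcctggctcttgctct
Atp2a1: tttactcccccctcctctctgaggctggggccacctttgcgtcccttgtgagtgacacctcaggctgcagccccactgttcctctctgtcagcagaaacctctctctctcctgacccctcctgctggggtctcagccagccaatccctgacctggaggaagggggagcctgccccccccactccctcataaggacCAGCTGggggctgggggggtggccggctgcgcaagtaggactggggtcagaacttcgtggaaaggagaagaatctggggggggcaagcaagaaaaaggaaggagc

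The Casq1 window held 2 E-boxes, CAGCTG from base -195 to -190 and CAGGTG from -67 to -62, counted from the annotated start. The Casq2 window held 2 E-boxes and 1 MEF2 site, which lay from base -69 to -60, and no E-box or MEF2 site overlapped another. The Atp2a1 window held 1 E-box, CAGCTG from -55 to -50, and the Hrc window, not printed, held 1 E-box of the same letters from -22 to -17. For Pvalb, not printed, 1 window held a MEF2 site from -180 to -171 and no E-box. Another Pvalb window held 2 E-boxes and no MEF2 site. Of all 32851 windows of this length, 72.3% held at least 1 E-box, 39.6% held 2 or more and 3.19% held a MEF2 site. A match describes the letters and does not show that a factor binds there.

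Of the 8 genes, 6 passed the filter of a mean of 1 CPM (the count scaled to a common library total) and were strongly expressed, whereas the pump inhibitor gene Sln and the cytosolic buffer gene Pvalb were hardly detected. Sln had 1 read in each of the 3 libraries. The upper end of its two-sided 95% interval was 0.400 CPM (here before TMM scaling, a correction for the make-up of each library) in rescue, 0.404 in KO and 0.401 in WT. Pvalb had 4 reads in rescue, 0 in KO and 3 in WT. For the 0 of KO, the upper end of the same two-sided interval was 0.267 CPM, and the lower, one-sided limit that a count of 0 allows is 3 reads, or 0.217 CPM. No ratio is given for either gene, and differences between the groups were not detectable at this depth. The other 6 genes are called the expressed genes below, and counts over them leave out these 2.

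Casq1, the calcium store protein of adult skeletal muscle, differed most among the libraries. It had 6534 reads in rescue, 1318 in KO and 1972 in WT, or 475.5, 95.4 and 140.3 CPM after TMM scaling. The rescue library was far above both others and KO was the lowest. The log2 ratio was 2.32 in rescue against KO (interval 2.23 to 2.40), 1.76 in rescue against WT (1.69 to 1.83) and -0.56 in KO against WT (-0.66 to -0.45). Only 21 of the 13382 genes kept by the filter had a higher ratio than Casq1 in rescue against KO. In KO against WT the gene was 1.47-fold lower, and 11.2% of all genes had a lower ratio. The rescue library did not return Casq1 to the level of WT but stood 3.39-fold above it.

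Casq2, the calsequestrin of heart, slow fibres and developing muscle, was the only expressed gene of the 6 that was higher in KO than in WT. It had 17569 reads in rescue, 12716 in KO and 10378 in WT, or 1278, 921 and 738 CPM. WT was the lowest library, KO lay above it and rescue was the highest. The log2 ratio was 0.32 in KO against WT (0.28 to 0.36), 0.47 in rescue against KO (0.44 to 0.51) and 0.79 in rescue against WT (0.76 to 0.83). These are folds of 1.25, 1.39 and 1.73, all under 2-fold. In KO against WT, 3147 of the 13382 genes had a higher ratio than Casq2.

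The calsequestrin pair therefore differed in make-up among the libraries. Per length, in TPM (the count per length, scaled to a fixed sum by the authors), Casq1 made up 33.7% of Casq1 plus Casq2 in rescue (interval 33.1 to 34.4), 12.4% in KO (11.8 to 13.1) and 20.6% in WT (19.9 to 21.4). The intervals do not overlap, and Casq2 was the more abundant form in every library. The TPM of Casq2 was 1.96 times that of Casq1 in rescue, 7.05 times in KO and 3.84 times in WT. The pair together reached 386 TPM in rescue, 225 TPM in KO and 194 TPM in WT.

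**Figure D1:**
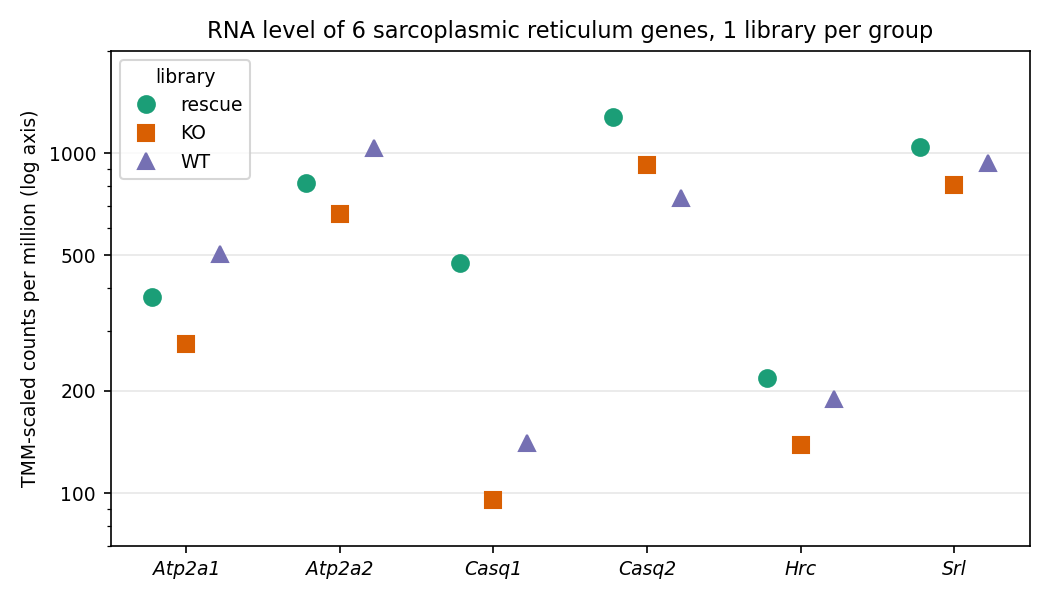
RNA level of the 6 expressed genes (TMM-scaled CPM, log axis) in the rescue, KO and WT libraries, 1 point per library. Casq1 stood at 475.5 CPM in rescue, above 95.4 in KO and 140.3 in WT, while both pump genes were highest in WT and KO was lowest for 5 of the 6 genes.

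The luminal genes Hrc and Srl were lowest in KO and highest in rescue. Hrc had 2999 reads in rescue, 1907 in KO and 2665 in WT, or 218, 138 and 189.6 CPM. Its log2 ratio was 0.66 in rescue against KO (0.58 to 0.74) and -0.46 in KO against WT (-0.54 to -0.37), and rescue lay a little above WT, at 0.20 (0.13 to 0.28). In rescue against KO, 415 of the 13382 genes had a higher ratio than Hrc.

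Srl, the sarcalumenin gene, had 14340 reads in rescue, 11151 in KO and 13104 in WT, or 1043, 807 and 932 CPM. Its 3 libraries lay closest together, with the highest 1.29 times the lowest. The log2 ratio was 0.37 in rescue against KO (0.33 to 0.41), -0.21 in KO against WT (-0.24 to -0.17) and 0.16 in rescue against WT (0.13 to 0.20). For rescue against WT the interquartile range of all genes was -0.22 to 0.26, which holds the value of Srl.

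Both pump genes were highest in WT, lowest in KO and intermediate in rescue. Atp2a1, the fast-fibre pump gene, had 5185 reads in rescue, 3802 in KO and 7107 in WT, or 377.3, 275 and 506 CPM. Among the 6 genes it had the lowest ratio in KO against WT, with a log2 ratio of -0.88 (-0.93 to -0.82), a 1.84-fold difference, and 5.10% of all genes lay lower. Its log2 ratio in rescue against KO was 0.45 (0.39 to 0.52), and rescue remained 1.34-fold below WT (log2 ratio -0.42, -0.47 to -0.37). The RefSeq gene Rabep2 overlaps Atp2a1, with 249 reads in rescue, 283 in KO and 332 in WT, and since no strand setting is given, some reads could belong to either gene.

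Atp2a2, the pump gene of slow fibres and heart, had 11211 reads in rescue, 9155 in KO and 14595 in WT, or 816, 663 and 1038 CPM. The order of the libraries was the same as for Atp2a1. The log2 ratio was -0.65 in KO against WT (-0.69 to -0.61), 0.30 in rescue against KO (0.26 to 0.34) and -0.35 in rescue against WT (-0.38 to -0.31). Within the pump pair, Atp2a1 made up 43.5% of Atp2a1 plus Atp2a2 per length in rescue (interval 42.7 to 44.3), 40.9% in KO (40.0 to 41.8) and 44.8% in WT (44.1 to 45.5). These intervals do not cover the trend of ratios with transcript length given below, and the rows of the pair differ in length. With that trend removed, the log2 ratios of Atp2a1 and Atp2a2 lay closer together. They were -0.85 and -0.74 in KO against WT, and 0.45 and 0.40 in rescue against KO. The shares were not recomputed without the trend. The pumps together gave 129 TPM in rescue, 108 TPM in KO and 175 TPM in WT.

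**Figure D2:**
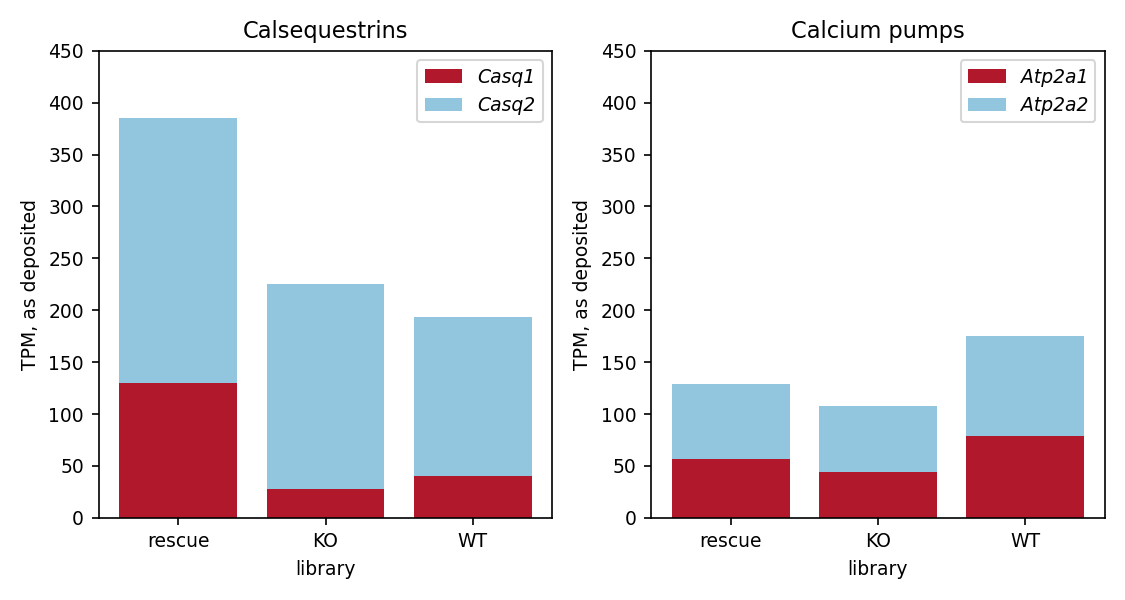
Deposited TPM of the 2 calsequestrin genes (left) and the 2 pump genes (right), stacked, in the rescue, KO and WT libraries. The calsequestrin total was 386 TPM in rescue, 225 in KO and 194 in WT, while the pump total was 129 TPM in rescue, 108 in KO and 175 in WT.

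Store and pump genes thus stood in different proportions. The calsequestrin total was 2.98 times the pump total in rescue, 2.09 times in KO and 1.10 times in WT. With Srl and Hrc added to the calsequestrins, the ratio was 3.84 in rescue, 2.88 in KO and 1.69 in WT. These ratios are within a library and compare TPM, so they do not depend on the scaling between libraries. They do depend on which transcript row stands for a gene, since the rows differ in length. The calsequestrin rows (1874 and 2565 bases) were shorter than the pump rows (3440 and 5725 bases). The trend of ratios with transcript length given below can therefore enter these proportions, which were not recomputed without it.

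Per length, Casq2 had the highest TPM of the 6 in every library, at 255 TPM in rescue, 197 in KO and 154 in WT. In rescue the order below it was Casq1, Atp2a2, Srl, Atp2a1 and Hrc. In KO it was Atp2a2, Srl, Atp2a1, Hrc and Casq1. In WT it was Atp2a2, Atp2a1, Srl, Hrc and Casq1. The place of Srl rests on its row of 8255 bases. Its row of 3693 bases, at 116 TPM in rescue and 97.4 TPM in KO, would place it above every Atp2a2 row in those libraries, and at 108 TPM in WT above Atp2a1, so the order of Srl among the pump genes is not fixed by these tables. Casq1 took second place with 130 TPM in rescue, and was last with 28.0 TPM in KO and 40.0 TPM in WT. Among genes kept by the filter it ranked 263 by TPM in rescue, 1431 in KO and 966 in WT. Hrc and Casq1 in WT were the only neighbours in these orders whose ratio had a counting interval holding 1 (1.04, 0.982 to 1.10), and these intervals do not cover the choice of row.

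Across the 6 expressed genes, KO lay below WT for 5 and above it for Casq2. The median log2 ratio was -0.51, beside 0.00052 over all 13382 genes, 49.9% of which lay below 0. None of the 6 differed 2-fold, while 4.07% of all genes were at least 2-fold lower and 5.35% at least 2-fold higher. In rescue against KO all 6 were higher, with a median log2 ratio of 0.46, beside 0.0072 and 51% above 0 over all genes. Casq1 was the 1 gene at least 2-fold higher, against 1.31% of all genes, and none was at least 2-fold lower, against 0.575%. In rescue against WT, 4 were higher and the 2 pump genes lower, with a median of 0.18, beside 0.014 and 51.5% above 0 over all genes. Casq1 was again the 1 gene at least 2-fold higher, against 4.61% of all genes, and none was 2-fold lower, against 3.02%. Each pair of these comparisons shares a library, so they are not independent of each other.

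**Figure D3:**
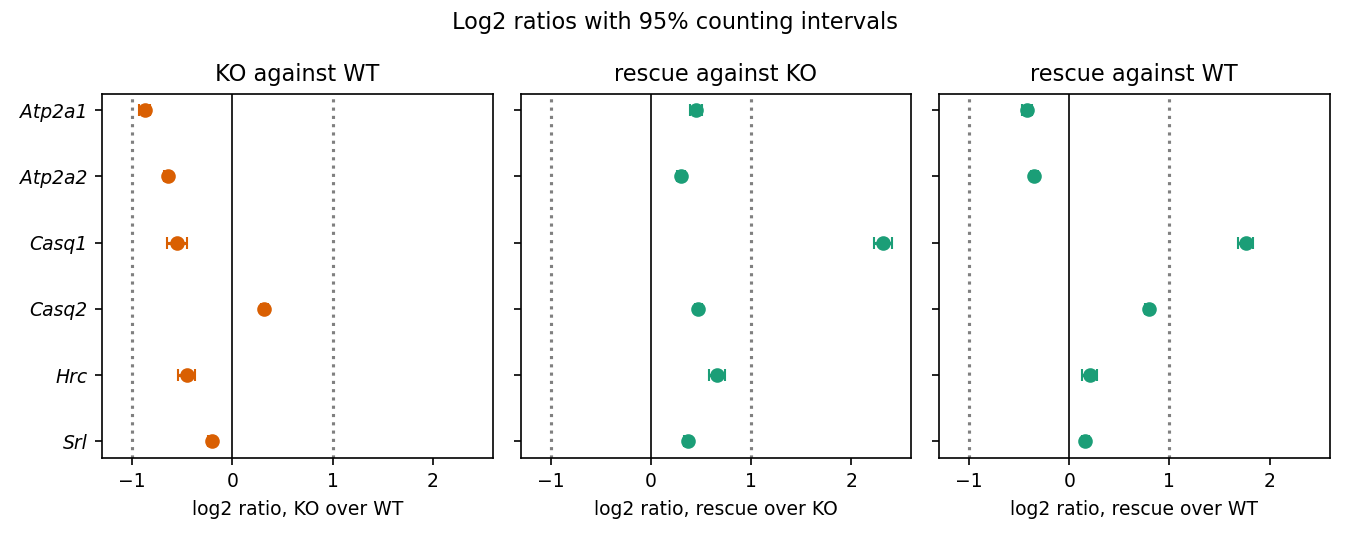
Log2 ratios of the 6 expressed genes in the 3 comparisons, with 95% counting intervals as bars (hidden by the point where narrow) and dotted lines at 2-fold. Casq2 was the 1 gene right of 0 in KO against WT, all 6 lay right of 0 in rescue against KO, and the pump genes alone lay left of 0 in rescue against WT.

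**Figure D4:**
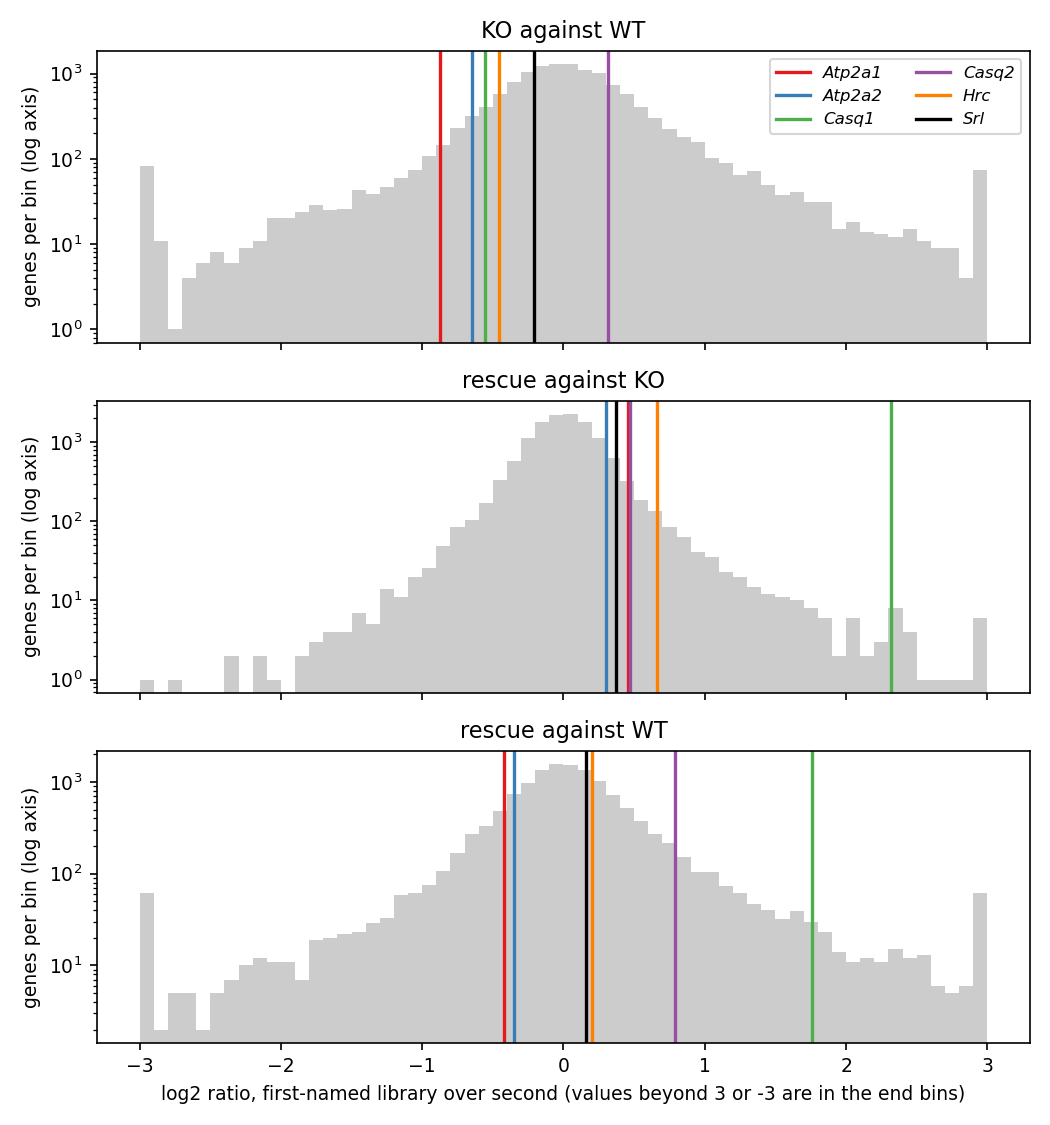
Histograms of the log2 ratios of all 13382 genes kept by the filter (number of genes per bin of 0.1, log axis), with a coloured line for each of the 6 expressed genes. Casq1 lay far in the right tail in rescue against KO (2.32) and the other 5 lay between 0.30 and 0.66.

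Ratios involving KO varied with transcript length. This was read on 8954 genes of the 13382, those represented by an mRNA row with a mean of 100 or more reads. When they were ordered by length and cut into 10 bins, the bin of shortest transcripts had a median of -0.21 and the bin of longest 0.20 in KO against WT (log2 ratios). For rescue against KO these medians were 0.23 and -0.21. The rows used for the 6 genes were between 1874 bases (Casq1) and 8255 bases (Srl) long. With this trend removed, the log2 ratio of KO against WT was -0.45 for Casq1, -0.37 for Srl and -0.74 for Atp2a2. That of rescue against KO was 2.22 for Casq1, 0.54 for Srl and 0.40 for Atp2a2.

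The deposited tables held 17 transcript rows for the 8 genes, and rows of 1 gene share most of their reads. For Atp2a2 the row with the most reads was variant 3, a transcript of 5725 bases annotated as non-coding. The mRNA rows of variants 1 and 2 had 10095 and 9851 reads in rescue, 8444 and 7829 in KO, and 13179 and 12702 in WT. All 3 rows gave the same direction, with log2 ratios between -0.67 and -0.62 for KO against WT and between 0.26 and 0.34 in rescue against KO. For Srl the 6 rows gave log2 ratios between -0.27 and -0.13 in KO against WT and between 0.33 and 0.40 in rescue against KO. The order of the libraries was therefore the same for every row of these genes. The row used does set the level per length. The shortest Srl row, of 3693 bases, had 116 TPM in rescue, 97.4 in KO and 108 in WT, against 64.8, 53.8 and 60.3 TPM for the row of 8255 bases used above. The 2 Casq2 rows differed by at most 2 reads in a library.

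**Figure D5:**
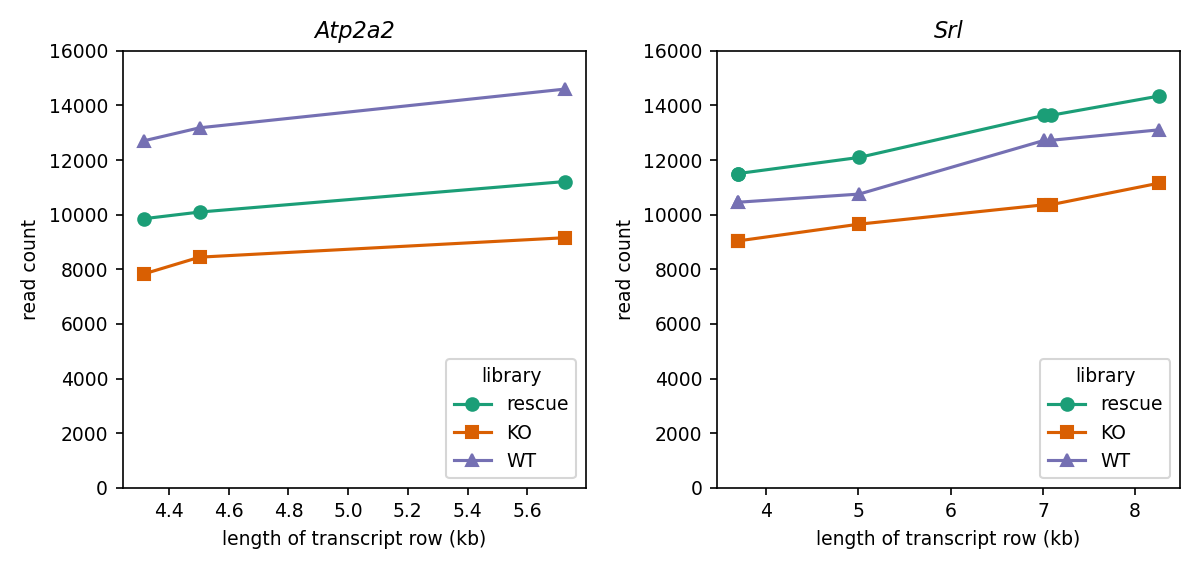
Read counts of each deposited transcript row of Atp2a2 (left) and Srl (right) against the length of the row in kilobases, for the rescue, KO and WT libraries. KO was the lowest library for every row, WT was the highest for each Atp2a2 row and rescue for each Srl row.

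Other genes around the pump were read from a list of pumps and regulators, of which 9 non-members passed the filter. Their log2 ratios had medians of -0.29 for KO against WT, 0.09 for rescue against KO and -0.18 in rescue against WT. Mrln, the gene of myoregulin, another pump-inhibiting peptide of skeletal muscle, had 27 reads in rescue, 19 in KO and 54 in WT. It was the 1 of these 9 at least 2-fold lower in KO against WT (log2 ratio -1.46, -2.32 to -0.70), beside 4.07% of all genes. Pln, the gene of the heart pump inhibitor phospholamban, had 1 read in rescue, 1 in KO and 6 in WT. Strit1, whose peptide DWORF activates the pump, had 0 reads in every library, which allows up to 3 reads in each by the one-sided limit.

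Tmem38a and Tmem38b encode the TRIC potassium channels of the reticulum, which balance charge as calcium moves. Tmem38a had 2644 reads in rescue, 1833 in KO and 3062 in WT, and Tmem38b had 998 in rescue, 768 in KO and 1391 in WT. Both showed the order of the pump genes, highest in WT and lowest in KO. Atp2a3, the pump gene of non-muscle cells, had 6 reads in rescue, 16 in KO and 27 in WT. It was the 1 non-member at least 2-fold lower in rescue against WT (log2 ratio -2.05, -3.70 to -0.83) and in rescue against KO, where the interval held 0 (-1.34, -3.05 to 0.02). Over all genes, 3.02% were at least 2-fold lower in rescue against WT and 0.575% in rescue against KO.

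Among luminal calcium binding proteins, 14 non-members were measured and none differed 2-fold in any comparison. Of all genes, 4.07% were at least 2-fold lower and 5.35% higher in KO against WT. The same shares were 0.575% and 1.31% in rescue against KO, and 3.02% and 4.61% in rescue against WT. A count of none among 14 is close to these shares. The log2 ratios of the 14 had medians of 0.07 for KO against WT, -0.05 for rescue against KO and -0.01 in rescue against WT. Calr, the gene of the general calcium store protein calreticulin, had 11785 reads in rescue, 11418 in KO and 12785 in WT. Hspa5, the chaperone BiP, had 15100 reads in rescue, 15950 in KO and 11869 in WT, the log2 ratio of KO against WT being 0.45. In rescue against KO the 14 lay between -0.22 for Asph and 0.26 for Jsrp1, a range that does not reach the value of Casq2, Hrc, Srl or Casq1.

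In the cytosol, 13 calcium binding genes passed the filter, with median log2 ratios of -0.46 in KO against WT, 0.24 in rescue against KO and -0.21 in rescue against WT. S100a4 was the 1 gene of the 13 at least 2-fold lower in KO than in WT, beside 4.07% of all genes. It had 5992 reads in rescue, 4843 in KO and 10772 in WT. Tnnc2, fast troponin C, had 12264 reads in rescue, 6326 in KO and 9325 in WT, a log2 ratio of 0.96 in rescue against KO. The median transcript length of these 13 genes was 721 bases, and the part of the length trend in their values was not tested.

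On the release side of the reticulum, 1 of 20 genes was at least 2-fold lower and 1 at least 2-fold higher in KO against WT. These counts are close to the shares over all genes, 4.07% and 5.35%. Trdn, whose product triadin anchors calsequestrin beside the ryanodine receptor, had 37 reads in rescue, 10 in KO and 663 in WT. It was the 1 gene of the list at least 2-fold higher in rescue against KO (log2 ratio 1.84, 0.86 to 3.07), beside 1.31% of all genes. It was also the 1 at least 2-fold lower in rescue against WT, beside 3.02% of all genes. For Trdn, rescue thus stayed 17.3-fold below WT, while Casq1 stood above WT. Ryr1, the skeletal ryanodine receptor gene, had 4647 reads in rescue, 5469 in KO and 4570 in WT. Itpr2, an IP3 receptor gene, had 471 reads in rescue, 641 in KO and 325 in WT, and was the gene 2.01-fold higher in KO.

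In the 3 remaining calcium lists, Slc8a1, the sodium-calcium exchanger of the plasma membrane, had 23 reads in rescue, 26 in KO and 117 in WT, and was the 1 of 13 transport genes at least 2-fold lower in KO. None of the 12 mitochondrial calcium genes differed 2-fold, and their medians were -0.24 (KO against WT) and 0.07 (rescue against KO) on the log2 scale. Shares of all genes at least 2-fold lower and higher were 4.07% and 5.35% in KO against WT. They were 0.575% and 1.31% in rescue against KO. A count of none among 12, or of 1 among 13 in KO against WT, is close to these shares. Among 19 calcineurin, NFAT and CaM kinase genes, Nfatc4 was the 1 gene at least 2-fold higher in KO against WT, with 120 reads in rescue, 104 in KO and 10 in WT. Camk2b, a CaM kinase subunit of muscle, was the 1 gene of that list at least 2-fold higher in rescue against KO, with 83 reads in rescue, 31 in KO and 60 in WT.

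Patterns were compared by the distance between pairs of log2 ratios (KO against WT, rescue against KO). This was computed over 3 libraries and 8996 genes with 200 or more reads in the highest library. The gene nearest to Casq1 was Padi2, a protein deiminase, at a distance of 0.24. Padi2 had 216 reads in rescue, 41 in KO and 72 in WT, and the counting error of its distance was not computed. The next were Hspb7, a small heat shock protein gene, at 0.91 and Myl2, the slow myosin light chain gene, at 1.01. For the other expressed genes the nearest gene lay closer, at a distance between 0.0041 (for Hrc) and 0.062 (for Casq2).

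Marker lists show what else differed between the cultures. The 8 myotube markers summed to 18721 CPM in rescue, 15092 in KO and 14359 in WT, with Ckm, muscle creatine kinase, the 1 marker at least 2-fold lower in KO than in WT and at least 2-fold higher in rescue than in KO. Over all genes, 4.07% were at least 2-fold lower in KO against WT and 1.31% at least 2-fold higher in rescue against KO. All 8 myotube markers lay above 0 in rescue against KO, with a median log2 ratio of 0.33, beside 0.46 for the 6 genes. In KO against WT, 4 lay above 0 and 4 below, with a median of -0.03, beside -0.51 for the 6 genes. The 6 myoblast markers summed to 60.5 CPM in rescue, 65.1 in KO and 122 in WT. Heyl (4.22 CPM in rescue, 4.63 in KO, 44.2 in WT) and Myf5 were lower in KO than in WT, whereas Id1 (8.80 CPM in rescue, 8.25 in KO, 4.98 in WT) and Id3 were higher. The 8 cell cycle markers summed to 560.4 CPM in rescue, 535 in KO and 822 in WT. The 6 fibroblast markers summed to 3398 CPM in rescue, 3829 in KO and 1718 in WT. Of the 5 that passed the filter, Col1a1, Pdgfra and Postn were at least 2-fold higher in KO than in WT, beside 5.35% of all genes. Dcn (130.4 CPM in rescue, 129 in KO, 368 in WT) was 2.85-fold lower, where 4.07% of all genes were at least 2-fold lower. Lum had 1 read in rescue, 0 in KO and 9 in WT. The 5 smooth muscle markers, most of whose reads came from Acta2, summed to 5253 CPM in rescue, 4266 in KO and 3557 in WT. The 8 cardiac markers summed to 77.6 CPM in rescue, 55.2 in KO and 54.1 in WT, and 3 of them passed the filter. Myh6, with 555 reads in rescue, 249 in KO and 263 in WT, was at least 2-fold higher in rescue than in either other library. The shares of all genes so called were 1.31% in rescue against KO and 4.61% in rescue against WT. Gata4 had 425 reads in rescue, 429 in KO and 407 in WT, and Nkx2-5 had 81, 80 and 56. Nppa and Tbx5 had 0 reads in every library. The part of these differences in the calcium gene results was not tested.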

How the data were processed

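The members, gene lists and alternatives were chosen with earlier results of these data known. Per the submitters' processing notes, cutadapt 1.9.1, HISAT2 2.2.1 and featureCounts 2.0.0 were used with the build GRCm39 (mm39). For strand, reads matching several genes and other settings, the sources used here give nothing. The deposited read count, per the file headers, is a raw whole number per transcript over 139023 rows. The RPKM deposited by the authors is the count per kilobase scaled to the total count of each table, and the deposited TPM is scaled to a fixed sum over all rows. Recomputed values differed by at most 4.98e-06 (RPKM) and 4.40e-06 (TPM). Coordinates are not in the tables.

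Per gene the row with the highest count over the 3 libraries was used, with lengths from its row. Counts were scaled with TMM factors (edgeR 4.0.16, R 4.3.3), which were 0.987 for rescue, 1.00 for KO and 1.01 for WT. Log2 ratios were taken after adding 0.5 to each count, with exact conditional (Clopper-Pearson) 95% intervals. Genes with a mean of 1 CPM or more were kept (13382). Higher and lower mean 2-fold or more where a fold is named. No test across libraries is possible with 1 library per group. The calculation was tested on counts simulated with counting error only. That test checks the arithmetic and cannot show how far replicate cultures would differ. Named genes were the 8 members, Dnm1l, up to 4 non-members per list with the largest ratios per comparison, and 3 genes nearest to each member that was 2-fold different; some are not printed. Calr, Ryr1, Pln, Strit1 and, of the named marker genes, Lum, Nppa and Tbx5 fall outside this rule and were chosen after their values were seen. Of the listed symbols, Arln, Erln and Spegnb were not matched.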

Additional observations from a re-analysis of the deposited data

How the results depend on the processing

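The alternatives were DESeq2 1.42.0 size factors, scaling to total counts, the sum over all transcript rows, the longest row, a pseudocount of 5, no low-count filter, the length trend removed and, chosen after seeing the data, the highest mRNA row. Under these 8, none of the 18 log2 ratios of the 6 expressed genes changed sign. For Casq1, rescue against KO stayed between 2.22 and 2.37, rescue against WT between 1.72 and 1.77, and KO against WT between -0.59 and -0.45. The number of the 8 genes at least 2-fold different changed only without the filter, where Pvalb (4, 0 and 3 reads in rescue, KO and WT) made 1 lower for KO against WT and, with Casq1, 2 higher for rescue against KO. Without the filter, 3330 genes were at least 2-fold higher and 3607 lower for KO against WT. The same counts were 2863 and 2409 for rescue against KO, and 3432 and 3284 for rescue against WT. In rescue against KO the 77 genes at least 2-fold lower were 32 with a pseudocount of 5 and 45 with mRNA rows only. With mRNA rows only, Atp2a1 made up 40.2% of the pump pair in rescue, 37.1% in KO and 41.4% in WT. Depth limits statements on Sln, Pvalb, Pln and Strit1. No paired analysis was possible because each group holds 1 library.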
